A study of Drosophila melanogaster with 2 samples.

Results

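The dosage compensation complex of Drosophila melanogaster was examined gene by gene in a ChIP-seq data set for Worniu (wor), a Snail-family zinc finger protein known from neuroblasts. The members were chosen by name, with earlier results of these data known. They were 8 of the 15913 annotated protein-coding and lncRNA genes on the chromosome arms, and all 8 were found in the annotation. They comprised the 2 lncRNA genes roX1 and roX2 and the 6 protein-coding genes msl-1, msl-2, msl-3, mle, mof and Clamp. A peak was given to a member when its summit lay inside the gene or within 5 kb of it. The libraries came from whole embryos of the strain wor-GFP, aged 0 to 18 h, with a fusion of wor to eGFP, precipitated with an antibody against GFP, in 2 biological replicates that form 1 group. The flies were transgenic and carried the fusion as an insertion. No second condition and no control library is analysed here. The chromatin came from all tissues of the embryo and sex was not recorded, so neither neuroblasts nor males can be set apart. Read depth is unknown, since the peak lists give no read numbers.

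The complex works in males, where it coats the X chromosome and raises transcription of its genes. MSL1 and MSL2 form the core that recognises the X, MSL3 reads a histone mark of active genes, MOF acetylates histone H4, and MLE is an RNA helicase that remodels the roX RNAs for assembly. The roX genes lie on the X and encode the non-coding RNAs of the complex, and CLAMP is a zinc finger protein that binds GA repeats and helps the complex to reach its entry sites. In females the Sex-lethal protein blocks translation of msl-2 mRNA, so the complex does not form.

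Of the 8 members, 1 had a summit in its window in the conservative list, the list of 3064 peaks made from both replicates and filtered at an irreproducible discovery rate (IDR) of at most 0.01. That member was roX2. Of all genes, 31.8% met the same rule in this list, so 1 of 8 is no excess. The share was 34.2% for genes on the X, where 3 of the members lie, 24.2% for lncRNA genes, 32.9% for protein-coding genes, and 32.0% for genes between 1368 and 5922 bp long, the range of the members. No summit lay inside the body of a member, against 8.02% of all genes with one, and none lay within 500 bp of a transcript start of a member, against 9.85%. Of all genes, 6.29% had one within 200 bp of a start. roX2 was also the single member with a summit within 1000 bp of its body, which 17.2% of all genes had. The second list made from both replicates, with 3081 peaks, gave the same single member, with 31.8% of all genes.

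roX2 (FBgn0019660) lies at chrX:11579065-11580432 on the plus strand, in dm6 coordinates, and its window held 3 conservative peaks. The stronger, at chrX:11576550-11576913, had its summit 2333 bp upstream of roX2, with a signal of 94.9 and rank 1958 of 3064. A weaker peak with a summit at 11576934 overlapped it, with a signal of 22.7 and rank 2847. The peak on the other side, at chrX:11580291-11580654, had its summit 41 bp downstream of the roX2 end, with a signal of 90.6 and rank 2051. Both main peaks were below the median signal of the list, 114.9. The authors gave 1 signal to each peak, and signals are compared here only within a list. The sequence around both main summits is shown because these are the conservative peaks at a member that overlap no stronger peak. Each line gives the plus strand of RefSeq Release 6, 5′ to 3′, with 50 bases on each side of the summit, which is the base in capitals.
roX2 upstream summit, chrX:11576682-11576782: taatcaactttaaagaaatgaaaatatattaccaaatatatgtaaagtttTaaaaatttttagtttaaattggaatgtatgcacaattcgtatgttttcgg
roX2 downstream summit, chrX:11580423-11580523: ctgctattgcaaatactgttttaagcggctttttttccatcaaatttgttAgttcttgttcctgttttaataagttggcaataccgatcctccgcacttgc

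Both windows were rich in A and T, with a G and C content of 20.8% upstream and 37.6% downstream. The median over the 3045 conservative peaks on the arms was 30.7%, so the 2 windows fell on either side of it. Neither window held the GA repeat GAGAGAG, the Snail-type E-box CAGGTG, the DRE TATCGATA or the M1BP-type motif GGTCACACT, searched on both strands without counting overlaps between motifs. These motifs were found in 0.394%, 2.04%, 0.558% and 0.164% of all conservative windows of this length.

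Every conservative summit in the roX2 window was nearer to a start of another gene than to the start of roX2. Over the whole list, 41.2% of conservative summits on the arms lay within 500 bp of a transcript start. The upstream summit lay between the divergent starts of e(y)2 and CG11695, which are 263 bp apart. It was 112 bp from the start of e(y)2, a subunit gene of the SAGA histone-modifying complex, and 151 bp from that of CG11695. The overlapping weaker summit lay in the 5′ UTR of CG11695, 51 bp from its start. The downstream summit lay in the 340 bp of intergenic sequence between roX2 and nod, 299 bp upstream of the start of nod, which encodes a kinesin-like protein of meiotic chromosomes. It was 1408 bp from the start of roX2. In the ranked list of both replicates, which holds 63100 peaks and contains the conservative list, 0 summits lay between the 2 sides of roX2, so the gene body had none in that list. In the ranked list of replicate 1 a weak peak lay inside roX2, 76 bp from its start, with a signal of 11.6 at rank 44023 of 56891.

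**Figure D1:**
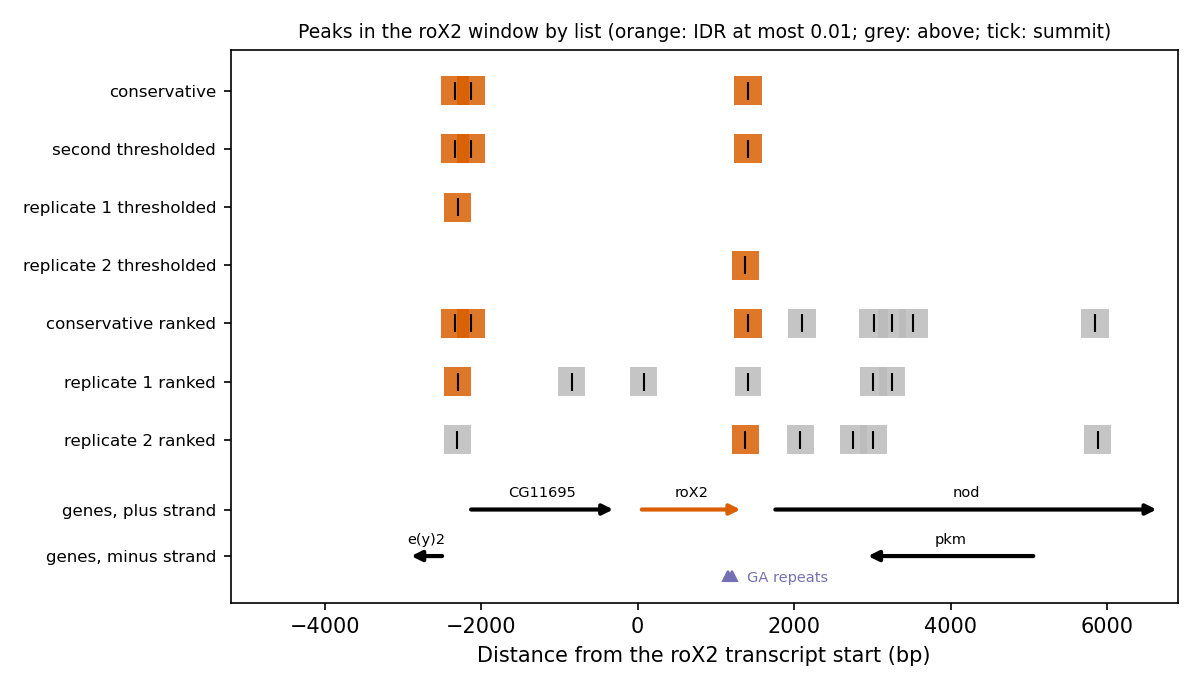
Peaks with a summit in the roX2 window in 7 of the 8 lists, against distance from the roX2 transcript start in bp, with the nearest genes and the GAGAGAG repeats of roX2 below. The bars are peak intervals, orange where the IDR was at most 0.01, and the summits of both orange clusters lie outside roX2, at 2333 bp upstream and 41 bp past its end.

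The replicates differed in which of the roX2 peaks passed the threshold. In replicate 1, the thresholded list of 2302 peaks held the upstream peak alone, with a signal of 58.7 and rank 1601. In replicate 2, the thresholded list of 1801 peaks held the downstream peak alone, with a signal of 57.0 and rank 1427. Of all genes, 27.5% had a summit in their window in the list of replicate 1 and 23.9% in that of replicate 2, and roX2 was the single member in each. In the longer ranked lists both main peaks were present in both replicates. The upstream peak had signals of 58.7 in replicate 1 and 33.2 in replicate 2, at ranks 1685 of 56891 and 3792 of 36518. Its IDR was 0.000778 in replicate 1 and 0.661 in replicate 2. The downstream peak had signals of 33.6 and 57.0, at ranks 3915 and 1530, with an IDR of 0.125 and 0.00127. The order of the 2 peaks was thus opposite in the replicates. With 1 value per replicate, and signals that are not scaled between lists, no test of this difference was possible. The summits of the replicates lay 31 and 29 bp from the upstream summit, and 0 and 30 bp from the downstream one. The overlapping weaker peak, with its summit at 11576934, had no summit within 100 bp in the ranked list of either replicate. This held for 244 of the 3045 conservative peaks on the arms.

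The conservative peaks most like the upstream peak in signal, over the 2 replicates, were those nearest to lncRNA:CR45258, lncRNA:CR44538 and nxf4. Likeness was the sum of the absolute log2 differences of signal in replicate 1 and in replicate 2. It was 0.019, 0.030 and 0.048 for the 3 genes. Their signals in replicate 1 were 59.1, 59.5 and 58.5, and in replicate 2 they were 33.4, 33.4 and 32.2. The first of these peaks lay 14805 bp from the nearest start, the second 798 bp and the third 38 bp.

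The GA repeats of the roX genes lie at some distance from these summits. The gene body of roX2 held 2 runs of GAGAGAG or its reverse complement, at chrX:11580214-11580220 and chrX:11580267-11580273, near its 3′ end. Their midpoints lay 256 and 203 bp from the downstream summit, and the peak interval, which covers the 3′ end of roX2, starts past both. roX1 held 1 such run, at chrX:3861336-3861342, which was 411 bp from the nearest summit of the ranked list, a peak of signal 24.3, and 7303 bp from the nearest conservative summit. In all, 5 of the 8 members held a run, against 24.5% of all genes and 18.0% of genes in the members' range of length. The repeats are printed with 20 bases on each side, on the plus strand, with GAGAGAG and its reverse complement in capitals, because GA repeats are the kind of sequence that CLAMP binds.
roX1 repeat, chrX:3861316-3861362: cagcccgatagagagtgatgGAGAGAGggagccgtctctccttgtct
roX2 repeats, chrX:11580194-11580293: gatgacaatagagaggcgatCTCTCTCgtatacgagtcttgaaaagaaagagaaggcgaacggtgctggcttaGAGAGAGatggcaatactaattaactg

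Close to the conservative summits this repeat was rarer than in flanking sequence. GAGAGAG occurred within 50 bp of 0.394% of conservative summits, against 2.73% of windows of the same width centred 500 bp downstream and 1.21% of ranked summits. None of the 53 ranked summits in the windows of the 8 members had it within 50 bp. Within 100 bp, 2 had it, both in the msl-2 window. The summit at 3464887 lay in a coding exon of msl-2, and that at 3459333 in a coding exon of Sec5. Within 100 bp the shares were 2.40% of conservative summits, 5.29% of windows 500 bp downstream and 2.43% of ranked summits, so conservative and ranked summits were then alike in this share. The Snail-type E-box was also rarer at conservative summits. Within 50 bp it occurred at 2.04% of them, against 4.24% of windows 500 bp downstream and 4.95% of ranked summits. The DRE (0.558% against 0.263% downstream) and the M1BP-type motif (0.164% against 0.0657%) went the other way. These shares rest on only 17 and 5 of the 3045 conservative summits, and the differences were not tested.

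The other 7 members had peaks only in the ranked lists, where nearly every gene has one. In the ranked list of both replicates all 8 members had a summit in their window, against 95.5% of all genes. The shares of all genes were 94.7% in the second ranked list, 96.1% in replicate 1 and 95.8% in replicate 2, and all 8 members were present in each. Presence in a ranked list therefore carries no information on the members, and the strength and reproducibility of the peaks are given instead. The strongest peak of each member was set against the strongest of each other gene, whose median signal was 49.7. In this list the largest share of weaker genes was 74.0%, at roX2, and the smallest was 6.37%, at mle. roX2 was the highest member in all 4 ranked lists. mle was the lowest in replicate 1, at 4.31%, while Clamp was the lowest in the second ranked list, at 7.08% against 12.3% for mle, and in replicate 2, at 10.7% against 29.2%.

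**Figure D2:**
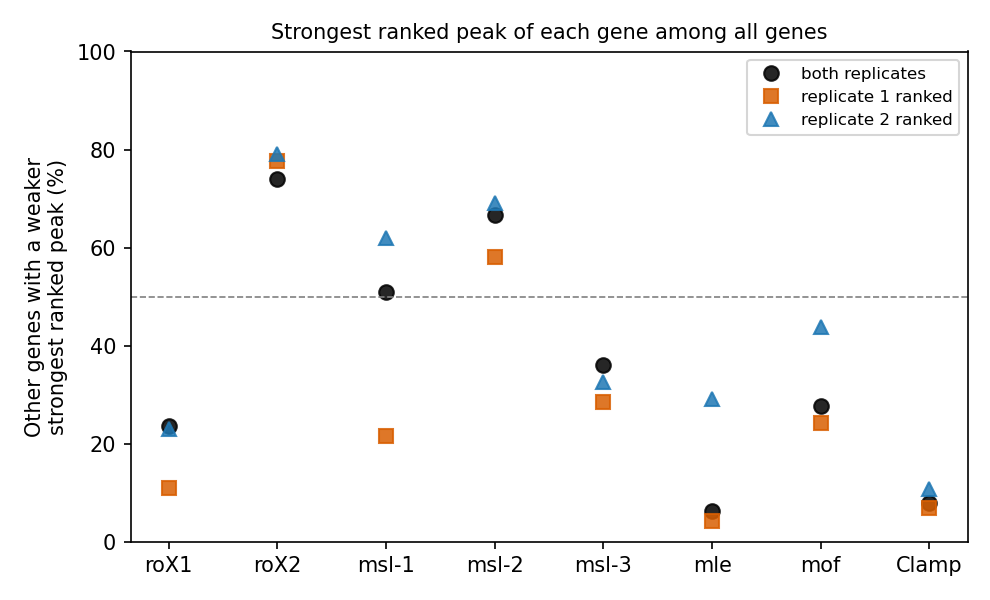
Share of all other genes whose strongest ranked peak within 5 kb was weaker than that of the member, in percent, in the ranked list of both replicates and in those of replicates 1 and 2. The dashed line marks 50%; roX2 and msl-2 lie above it in all 3 lists, msl-1 changes sides between the replicates, and roX1, msl-3, mle, mof and Clamp lie below it throughout.

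msl-2 (FBgn0005616, chr2L:3462218-3466112, minus strand), which encodes the male-specific subunit, came nearest to the threshold. Its strongest peak had a summit at 3465556, in a coding exon 556 bp from the transcript start. Its signal was 69.8 at rank 3054 of 63100, with an IDR of 0.0450 against the limit of 0.01. In the conservative list 402 of 3064 peaks (13.1%) had a lower signal. Only 133 of these were among the 2784 conservative peaks that overlap no stronger peak, and the msl-2 peak overlaps none. In the ranked list 391 peaks outside the conservative list had a higher signal. The peak had a match within 100 bp in the ranked list of each replicate. The match had a signal of 25.7 at rank 8227 in replicate 1 and of 39.0 at rank 2718 in replicate 2. Its −log10 IDR was only 0.08 in replicate 1 and 1.06 in replicate 2, where the threshold needs at least 2. In the second ranked list the msl-2 peak had a −log10 IDR of 0.52, against 1.35 in the ranked list that contains the conservative list. Another summit in a coding exon of msl-2, at 3463491, had a signal of 46.0, with 19.7 in replicate 1 and 27.7 in replicate 2. In replicate 1 the strongest peak of the window was a different one, upstream of msl-2, with a signal of 31.5 at rank 4541. msl-2 had a stronger best peak than 66.7% of other genes in the list of both replicates, 58.0% in replicate 1 and 69.1% in replicate 2. Just inside the threshold stood the roX2 upstream peak, with a −log10 IDR of 2.35.

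roX1 (FBgn0019661, chrX:3857230-3862697, minus strand), the second RNA gene of the complex, had 7 summits in the ranked list of both replicates, 5 of them in exons of roX1, where roX2 had 0 inside its body. In the ranked list of replicate 2 no summit lay inside roX1. The strongest, at 3858701, had a signal of 38.3 at rank 13584 and a −log10 IDR of 0.18. A match in replicate 1 had a signal of 13.5 at rank 38353, and replicate 2 had none within 100 bp. A summit at 3862062 lay 1 bp from one of the 3 transcript starts of roX1, with a signal of 23.9. It had a match of 15.1 in replicate 1 and none in replicate 2. In replicate 2, the 2 ranked peaks of the window both lay upstream of roX1, with signals of 21.5 and 21.3. roX1 had a stronger best peak than 23.6% of other genes in the list of both replicates, 10.9% in replicate 1 and 23.0% in replicate 2. The nearest conservative summit was 5945 bp upstream, at chrX:3868604-3868696, in an intron of yin and 311 bp from a start of that gene, a peptide transporter gene. Its signal was 242.4 at rank 475, and it fell just outside the 5 kb limit.

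msl-1 (FBgn0005617, chr2L:18683720-18688800), the scaffold gene of the complex, had a strongest ranked peak of 50.3 located 4636 bp upstream, in a coding exon of CG10383. The signal there was 20.1 in replicate 1 and 33.0 in replicate 2. The peak nearest to the msl-1 start lay 237 bp upstream, in intergenic sequence, with a signal of 40.5 and a −log10 IDR of 0.24, and neither replicate had a match within 100 bp. msl-1 stood above 21.6% of other genes in replicate 1 and above 62.0% in replicate 2, so its place depended on the replicate. The nearest conservative summit was 6779 bp upstream, at the start of CG10383, with a signal of 179.

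msl-3 (FBgn0002775, chr3L:7123213-7125533), the chromodomain subunit gene, had a strongest peak of 43.4 in a coding exon of BBS1, 1068 bp upstream of it. A peak of 38.8 lay in a coding exon of msl-3 itself, with a match of 23.8 in replicate 2 and none in replicate 1. mof (FBgn0014340, chrX:5873840-5876853), the acetyltransferase gene, had a strongest peak of 40.0 located 2644 bp upstream, in the 5′ UTR of Usp30. Its match was 26.4 in replicate 2, and replicate 1 had none. A peak of 28.7 lay in a coding exon of mof, 354 bp from its start. For both genes every summit in the ranked list of both replicates had a −log10 IDR of at most 0.34.

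mle (FBgn0002774, chr2R:5974857-5980778), the helicase gene, had the weakest best peak of the members in the list of both replicates, with a signal of 25.6 at rank 32846. It lay 763 bp downstream of mle, in a coding exon of BubR1, and 0 of the 4 ranked summits of the window lay inside mle. The second ranked list had a summit inside mle, in a coding exon 1707 bp from its start, with a signal of 32.0. Replicate 2 had one at the same base with a signal of 18.6. A stronger summit of replicate 2 lay in a coding exon of mle at 5976758, with a signal of 22.1 and a −log10 IDR of 0.09. The strongest peak of the window was 10.9 in replicate 1 and 22.9 in replicate 2. Clamp (FBgn0032979, chr2L:22165720-22169143) had 7 ranked summits, 5 of them inside the gene. The strongest, with a signal of 28.3 at rank 28188, lay 3976 bp downstream, in a coding exon of CG42748. The strongest inside Clamp had a signal of 25.5. All 7 ranked summits had a −log10 IDR of 0.05. In replicate 1, 0 summits lay inside Clamp. The strongest peak of the window lay in a coding exon of CG42748 in replicate 1 (15.5) and in its 3′ UTR in replicate 2 (17.9). Clamp stood above 7.99% of other genes in the list of both replicates, 6.92% in replicate 1 and 10.7% in replicate 2.

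**Figure D3:**
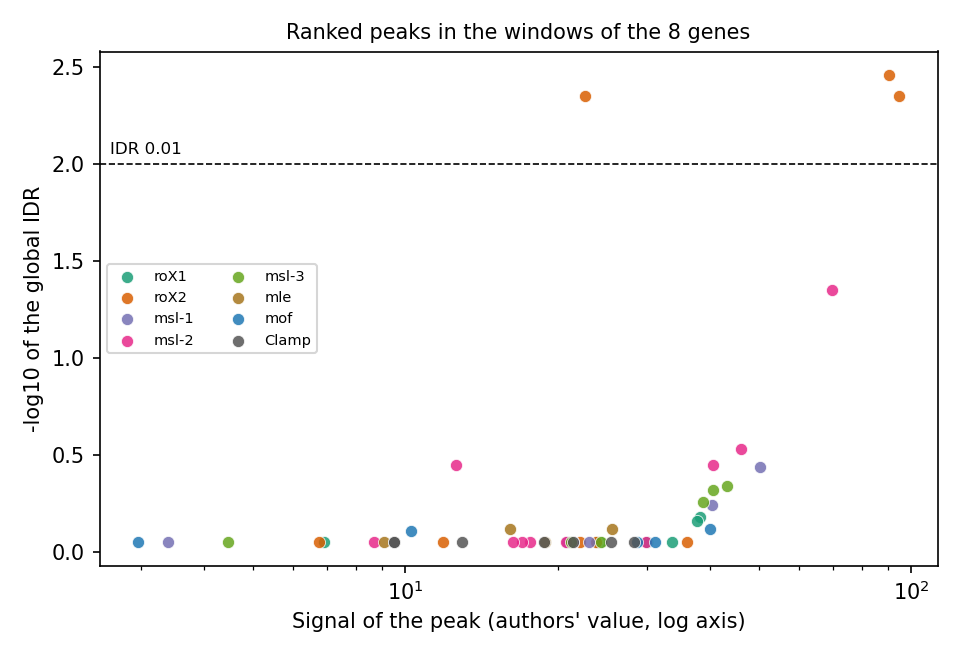
Signal (log axis) and −log10 of the global IDR of the 53 ranked peaks in the windows of the 8 genes, in the ranked list of both replicates, 1 point per peak. The 3 points above the dashed line at an IDR of 0.01 are those of roX2, and the next highest is the msl-2 peak at 1.35.

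Across the 8 windows, which cover 110 kb, 50 ranked peaks lay outside the conservative list. Their signals ranged from 2.96 to 69.8, with a median of 22.6. Of the 50, 35 (70.0%) had an IDR of 0.897, the highest value in the list, which 45.7% of all ranked peaks have. A summit within 100 bp in the ranked lists of both replicates was found for 7 of the 50 (14.0%), in 1 replicate for 24 and in neither for 19. Over all ranked peaks outside the conservative list 18.0% were matched in both, and over conservative peaks 87.0%, a share that the IDR step itself raises. Coding exons held 37 of the 50 summits (74.0%). Coding exons make up 54.9% of the bases of these windows and 16.6% of the chromosome arms, and they held 23.0% of all ranked summits outside the conservative list but 1.15% of conservative ones. The roX2 conservative summits, by contrast, lay in intergenic sequence or a 5′ UTR. The 53 ranked summits of the windows, which include the 3 conservative ones of roX2, had a median G and C content of 52.5%. It was 46.5% for all ranked summits outside the conservative list, so the 2 sets are not quite alike.

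The distance to the nearest conservative summit separated the members further. It was 5.95 kb for roX1, 6.78 kb for msl-1, 8.68 kb for msl-3 and 9.94 kb for msl-2, all upstream of the gene. With a limit of 10 kb, 5 of 8 members would have had a summit, against 45.4% of all genes. Each of these 4 summits was within 311 bp of a start of another gene, yin, CG10383, melt or lncRNA:CR43928. Of all conservative summits on the arms, 41.2% lay within 500 bp of a transcript start. For mof the nearest conservative summit was 19.3 kb away, for mle 72.1 kb and for Clamp 298 kb. The median over all genes was 12.1 kb, with a lower quartile of 2.99 kb and an upper quartile of 32.2 kb, so mle and Clamp lay beyond the upper quartile. Clamp lies in a stretch of 1096 kb on 2L with no conservative summit and 1 conservative summit above it on the arm. mle lies in a stretch of 925 kb on 2R, with 2 conservative summits below it on the arm. These stretches held 0.220 and 0.274 ranked summits per kb, against 0.454 over all arms.

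**Figure D4:**
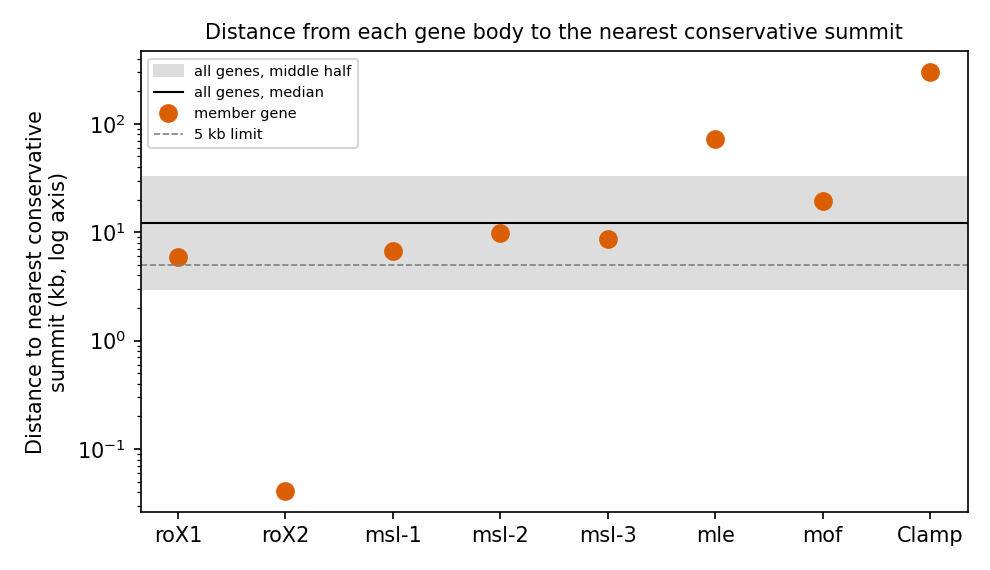
Distance in kb (log axis) from each gene body to the nearest conservative summit. The black line is the median over all genes (12.1 kb), the grey band runs from 2.99 to 32.2 kb, the lower to the upper quartile, and the dashed line is the 5 kb limit; roX2 lies at 0.041 kb and Clamp at 298 kb.

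Genes that act with the complex or above it were taken from 4 lists of 27 genes. In the conservative list 16 of the 27 had a summit in their window, against 31.8% of all genes. The median length of the 27 genes was 5675 bp, against 3660 bp for the members. Of the 13 genes longer than the longest member 8 had a summit, and of the 14 others 8 had one. A summit lay inside the gene for 9 of the 27 (33.3%), against 8.02% of all genes. The same 9 genes had a summit nearest to a start of their own. Neither share of all genes is matched for length, and none was computed for genes longer than the longest member. Sxl, Rcd5, Trl and dsx, 4 of the 27 (14.8%), had a summit within 500 bp of a start of their own, against 9.85% of all genes. Of these, only the Trl summit was matched in the thresholded lists of both replicates. The Sxl summit and the stronger Rcd5 summit were matched in replicate 1 alone, and the dsx summit in replicate 2 alone. The 4 lists of related genes were chosen by name, with earlier results of these data known, and no test of them was made.

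Of the regulators of msl-2 and roX, 3 of 4 had a summit. Sxl, which encodes the female switch protein that blocks msl-2 translation, had 5 in its window. The strongest, at chrX:7095542-7095905, was intronic, with a signal of 152.9 at rank 1017, and was in the thresholded lists of both replicates. A second Sxl summit lay 456 bp from a start, with a signal of 108.3. The others were nearest to starts of other genes. Those upstream of Sxl, with signals of 139.7 and 13.1, were nearest to CG4615. An intronic one of 93.5 was nearest to lncRNA:CR46494. how, an RNA-binding protein gene, had an intronic peak of 163.7. Hrb27C, which encodes an RNA-binding partner of Sex-lethal, had an intronic peak of 108.3, in the thresholded list of replicate 2 alone. Unr, whose protein joins Sex-lethal on msl-2 mRNA, had none.

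Of the NSL complex, a second complex that contains MOF, 3 of 6 genes had a summit. Rcd5 had one 96 bp upstream of its start, with a signal of 142.2, and it was 49 bp from the start of CG11593. The peaks of Rcd1 (447.4) and wds (167.9) were nearest to CG13018 and egh. nsl1, dgt1 and MBD-R2 had none, though nsl1 had a summit in the second thresholded list and in that of replicate 2. Of the chromatin partners, 6 of 10 had a summit. Trl, which encodes GAGA factor, had 4, from 103.1 to 971.5. JIL-1, which encodes a histone H3 kinase enriched on the male X, had an intronic peak of 345.3 at rank 246. The strongest peak in the window of Top2, a topoisomerase gene, had a signal of 284.7 and was nearest to RanGAP. The 5′ UTR of Top2 held a peak of 74.5, and psq, a GA-binding factor gene, had an intronic one of 77.2. Neither of these weaker peaks was matched in the thresholded list of either replicate. The peaks of the gene that encodes heterochromatin protein HP1 and of MRG15 were nearest to other genes. Su(var)3-7, Mgtor, Set2 and Iswi had none.

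Of the genes of the sex switch, 4 of 7 had a summit. dsx, the transcription factor gene at the end of the cascade, had one of 97.4 in an intron, 326 bp from a start, in the thresholded list of replicate 2 but not of replicate 1. The summits in the windows of tra (101.3), sisA (81.2) and da (125.7) were nearest to starts of other genes, l(3)73Ah, Gapvd1 and Cdk1. Those of sisA and da were matched in the thresholded list of replicate 1 alone. tra2, sc and run had none.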

How the data were processed

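Per the deposited sample notes, each peak list was derived by the authors from alignments on dm6 plus inputs left undescribed. Fragments were 200 to 800 bp, per the labels. Neither an aligner nor a caller is named in the sources used here. The deposited signal is 1 value per peak, the deposited score is a capped whole number from the IDR step (not used), and the deposited ranked lists give the −log10 of the global IDR. Thresholded lists hold peaks with a value of at least 2. Lists derive from the alignments of both replicates or of 1 replicate, per the deposited notes. Depth is unknown, and no interval that needs it is given.

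Summits (peak start plus offset, counted from 1) were placed on Ensembl release 115 genes (BDGP6 annotation 54) and RefSeq Release 6 sequence. Protein-coding and lncRNA genes on 7 arms were used. Ranks are by signal over all peaks of a list. Peaks of 2 lists were matched within 100 bp of the summit. Motif windows were 50 bp on each side. No test is given, since there is 1 group of 2 replicates. Analysis used Python 3.11.15 and numpy 2.4.6, and the window count was tested on simulated data. The members and lists were chosen with earlier results of these data known. All members were named, with the related genes that had a conservative summit (not each of their peaks), the 3 peaks most like that of roX2 and the summits between 5 and 10 kb. Alternatives covered the window, the list, the threshold, the peak interval, overlapping peaks, the nearest start and single replicates. Mgtor is the current symbol of the gene listed as Mtor.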

Additional observations from a re-analysis of the deposited data

How the results depend on the processing

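The count of 1 member with a conservative summit was the same with windows of 1000 or 2000 bp, in the second thresholded list, with any overlap of the peak interval, without overlapped weaker peaks, and without replicate 1 or without replicate 2 (1 in each, by different roX2 peaks). It was 0 for summits inside the gene, at an IDR of at most 0.001, among peaks above the median signal and for summits nearest to a start of the member. The 0 at that IDR holds for the conservative list. The lowest IDR of a roX2 peak was 0.000834 in the second thresholded list, 0.000778 in replicate 1 and 0.00127 in replicate 2. The count of members was 5 within 10 kb and 8 with all ranked peaks, by construction. The shares of all genes were 8.02% inside the gene, 17.2% at 1000 bp, 21.3% at 2000 bp, 45.4% at 10 kb and 95.5% with all ranked peaks. No share was computed for an IDR of at most 0.001, peaks above the median signal or summits nearest to an own start. A count of 0 there thus has no background to be read against. The count of 0 members with a summit within 500 bp of a start stayed 0 in all 6 alternatives. The strongest roX2 signal was 94.9 in both lists made from both replicates and 57.0 to 58.7 in single replicates, where signals are on another scale. The count of conservative summits with GAGAGAG or CAGGTG at a member was 0 with 50 and 100 bp. The 16 related genes became 14 within 2000 bp, 17 in the second list and 13 to 14 in single replicates. No paired analysis was possible because there is 1 group. Depth is unknown, so a missing peak does not show that binding is absent.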
